A study of Mus musculus with 12 samples.

Results

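The genes of fatty acid oxidation, ketogenesis and the PPARalpha response in mouse liver were followed here as a set of 37 genes. They were chosen by name, with earlier results of these data known, and all 37 were found among the 19252 genes of the deposited gene table. All 37 were also tested, as were 11376 genes that reached a TPM of 1 in 4 or more libraries. TPM, the unit of the table, is a length-corrected share of a library's transcripts, made by the authors. By role, 4 members serve the carnitine shuttle, 16 mitochondrial oxidation, 9 peroxisomal oxidation and 2 ketone bodies, and 6 are regulators or other PPARalpha targets.

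Liver RNA came from C57BL/6 mice in 3 groups of 4 libraries. The first group ate a normal fat diet (NFD) and the second a high fat diet (HFD). The third (NAC_HFD) ate the high fat diet and drank water with 2 g of N-acetylcysteine, a precursor of cysteine and glutathione, per litre. Each group was fed for 14 weeks. The labelled age is 8 weeks, with no word on when it applies. No genetic change is labelled in any group. The labels do not state that each library is a separate animal, so p-values measure only the spread between these samples, which may be technical.

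Long-chain fatty acids enter mitochondria as carnitine esters, and each turn of beta-oxidation then runs through an acyl-CoA dehydrogenase, a hydratase, a hydroxyacyl-CoA dehydrogenase and a thiolase. Peroxisomes shorten very-long-chain and branched fatty acids by a parallel route. In liver much of the acetyl-CoA formed leaves as ketone bodies. PPARalpha is a nuclear receptor that binds fatty acid ligands and, paired with a retinoid X receptor, induces most of these genes in the fasted hepatocyte.

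Promoter sequence of 5 members the results turn on is shown first. Hadh, Aldh3a2 and Pex11a are genes called higher on the high fat diet in 3 different roles, and Ehhadh is a gene of opposite sign. Acadm is a gene whose coding and noncoding transcripts differ. The sequences are from RefSeq (GRCm38.p6) and give, 5′ to 3′ on the gene's own minus strand, the 250 bases before the annotated start. They lie at chr3:131272102-131272351, chr11:61267187-61267436, chr7:79743132-79743381, chr16:21787835-21788084 and chr3:153944644-153944893 in that order. The Aldh3a2 window lies inside the span of that gene given below, so the start used for it is an internal one. Capitals mark matches to the motifs searched.
Hadh: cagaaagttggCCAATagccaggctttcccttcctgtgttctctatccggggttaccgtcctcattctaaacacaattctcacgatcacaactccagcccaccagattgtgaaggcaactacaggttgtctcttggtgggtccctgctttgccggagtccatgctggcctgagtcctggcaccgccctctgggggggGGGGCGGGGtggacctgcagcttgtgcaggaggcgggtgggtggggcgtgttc
Aldh3a2: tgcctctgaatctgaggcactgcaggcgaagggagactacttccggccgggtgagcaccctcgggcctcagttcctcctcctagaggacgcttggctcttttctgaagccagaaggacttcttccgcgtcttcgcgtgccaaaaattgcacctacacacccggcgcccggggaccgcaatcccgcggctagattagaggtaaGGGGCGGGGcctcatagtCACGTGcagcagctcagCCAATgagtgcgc
Pex11a: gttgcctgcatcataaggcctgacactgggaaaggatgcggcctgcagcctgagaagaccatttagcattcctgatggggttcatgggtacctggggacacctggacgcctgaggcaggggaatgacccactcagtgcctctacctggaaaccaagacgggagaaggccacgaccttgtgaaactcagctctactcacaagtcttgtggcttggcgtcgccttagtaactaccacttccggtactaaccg
Ehhadh: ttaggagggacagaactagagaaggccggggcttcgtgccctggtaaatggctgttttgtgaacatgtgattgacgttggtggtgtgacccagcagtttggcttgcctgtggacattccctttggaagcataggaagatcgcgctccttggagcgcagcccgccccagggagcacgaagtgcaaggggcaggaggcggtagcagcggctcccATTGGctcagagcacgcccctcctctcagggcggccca
Acadm: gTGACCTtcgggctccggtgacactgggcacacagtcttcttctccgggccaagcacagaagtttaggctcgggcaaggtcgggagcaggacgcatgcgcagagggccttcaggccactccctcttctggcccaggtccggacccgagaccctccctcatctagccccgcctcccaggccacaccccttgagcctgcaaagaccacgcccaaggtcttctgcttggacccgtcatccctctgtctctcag

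A promoter was found for 31 of the 37 members, and 250 bases before to 50 after the start were searched on both strands. The perfect PPAR-type repeat, the half-site AGGTCA written again after 1 base of any kind, was in 0 of 31 members and in 0.0396% of all 32851 promoters, or 0.0481% of 27025 genes. With so rare a repeat, a count of 0 in 31 members cannot tell them from other genes. Imperfect repeats and bases beyond the window were not searched. The half-site AGGTCA, which the repeat contains, was in 4 members (Acadm, Acadvl, Cpt1a and Creb3l3), against 16.3% of promoters and 18.1% of genes. The GC box GGGGCGGGG was in 6 members (Acads, Aldh3a2, Cpt1a, Eci1, Eci2 and Hadh), against 11.4% of promoters and 12.9% of genes. A second GC box of Hadh lies after the start and is not shown. CCAAT was in 15 members, among them Hadh, Aldh3a2 and Ehhadh, against 37.4% of promoters and 41.1% of genes. The E box CACGTG was in 2 members (Aldh3a2 and Fgf21), against 7.15% and 8.09%, and TATAAA in 1 (Fgf21), against 13.6% and 15.7%. The Pex11a window held no match to any motif searched.

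Libraries of 1 group were not alike. HFD replicate 1 had the highest TPM of all 12 libraries in 23 of 37 members, NAC_HFD replicate 2 had the lowest in 23, and NFD replicate 2 had the lowest in 10. The summed TPM of the members was 5153 to 6772 in NFD, 6454 to 7415 in HFD and 4965 to 6469 in NAC_HFD, so the HFD range overlapped both others. Depth is unknown, because TPM keeps no read count. Hepatocyte markers (Alb, Apoa1 and 4 others) summed to 37157 to 57459 TPM over the 12 libraries. By contrast, 5 muscle markers summed to at most 0.3 TPM in any library. All 10 Kupffer cell markers had positive fold changes in HFD against NFD, with 0 called, and 0 of 10 in NAC_HFD against HFD; they summed to 80.9 to 153 TPM in NFD, 108 to 271 in HFD and 74.7 to 147 in NAC_HFD. Endothelial markers were positive in 4 of 5 and 0 of 5, and hepatocyte markers in 1 of 6 and 4 of 6, in the same 2 comparisons, with 0 called. Stellate markers were positive in 4 of 5 in both, and the 2 tested cholangiocyte markers in 1 and 0, with 0 called. Over all tested genes, 52.7% and 31.5% of fold changes were positive. Of 7 fat-cell markers 3 were tested and 2, Cfd and Car3, were called higher in HFD than NFD. Cfd had 0.58, 0.05, 0.05 and 0.12 TPM in NFD, 4.87, 4.74, 6.63 and 32.7 in HFD, and 1.6, 0.19, 0.11 and 1.75 in NAC_HFD. Car3, which hepatocytes also express, made up nearly all of the list's sum of 398 to 860 TPM in NFD, 1889 to 2075 in HFD and 1254 to 1797 in NAC_HFD, while Adipoq and Plin1 reached at most 0.15 and 0.27 TPM. The part of these cell types in the results was not tested. In bulk liver, fewer cells of a type and less RNA per cell cannot be told apart.

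**Figure D1:**
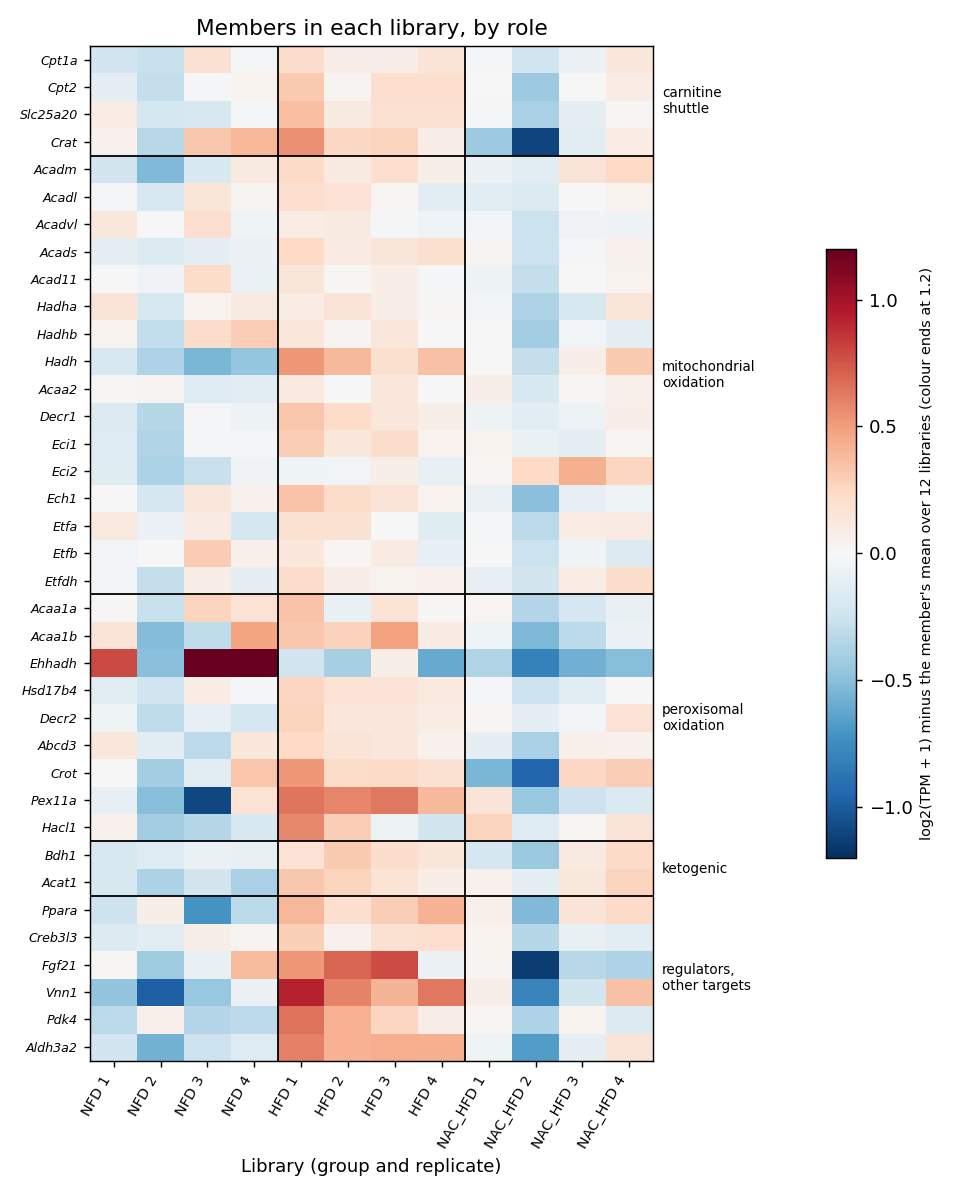
Each row is a member and each column a library; colour gives log2(TPM + 1) minus the member's mean over 12 libraries, ending at 1.2 in either direction, and lines separate groups and roles. HFD replicate 1 is highest of 12 in 23 members and NAC_HFD replicate 2 lowest of 12 in 23, while Ehhadh is darkest in NFD replicates 3 and 4.

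The first comparison asked how the high fat diet changed the oxidation genes. In HFD, 6 of 37 members rose and 0 fell: Hadh, Pex11a, Acat1, Vnn1, Pdk4 and Aldh3a2 (limma on log2(TPM + 1), Benjamini-Hochberg adjusted p under 0.05 over all tested genes), where 2.78% of all tested genes were called, 2.19% as higher. At an unadjusted p under 0.05, 18 members were higher and 1 (Ehhadh) lower, against 11.8% and 7.3%. Fold changes were positive for 34 members and negative for 3, against 52.7% and 47.3% of tested genes. The members' median was 0.28 on the log2 scale, against 0.01 for all genes. Every HFD library lay above every NFD library in 14 members, against 7.78% of tested genes, and the reverse held for 0 members, against 4.57%. By role, the median log2 fold change was 0.15 for mitochondrial oxidation, 0.25 for the carnitine shuttle, 0.32 for peroxisomal oxidation, 0.42 for the ketone genes and 0.61 for the regulators and other targets.

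Both the members' calls and those over all genes fell in number when some single libraries were left out. Such a fit also has fewer libraries, and the part of this in the loss was not tested. Without HFD replicate 1, 1 member (Hadh) stayed past the threshold, and without HFD replicate 2, HFD replicate 4 or NFD replicate 1, it was 2, 2 and 3 members. In the same 4 fits the calls over all genes went from 316 to 90, 129, 97 and 142.

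**Figure D2:**
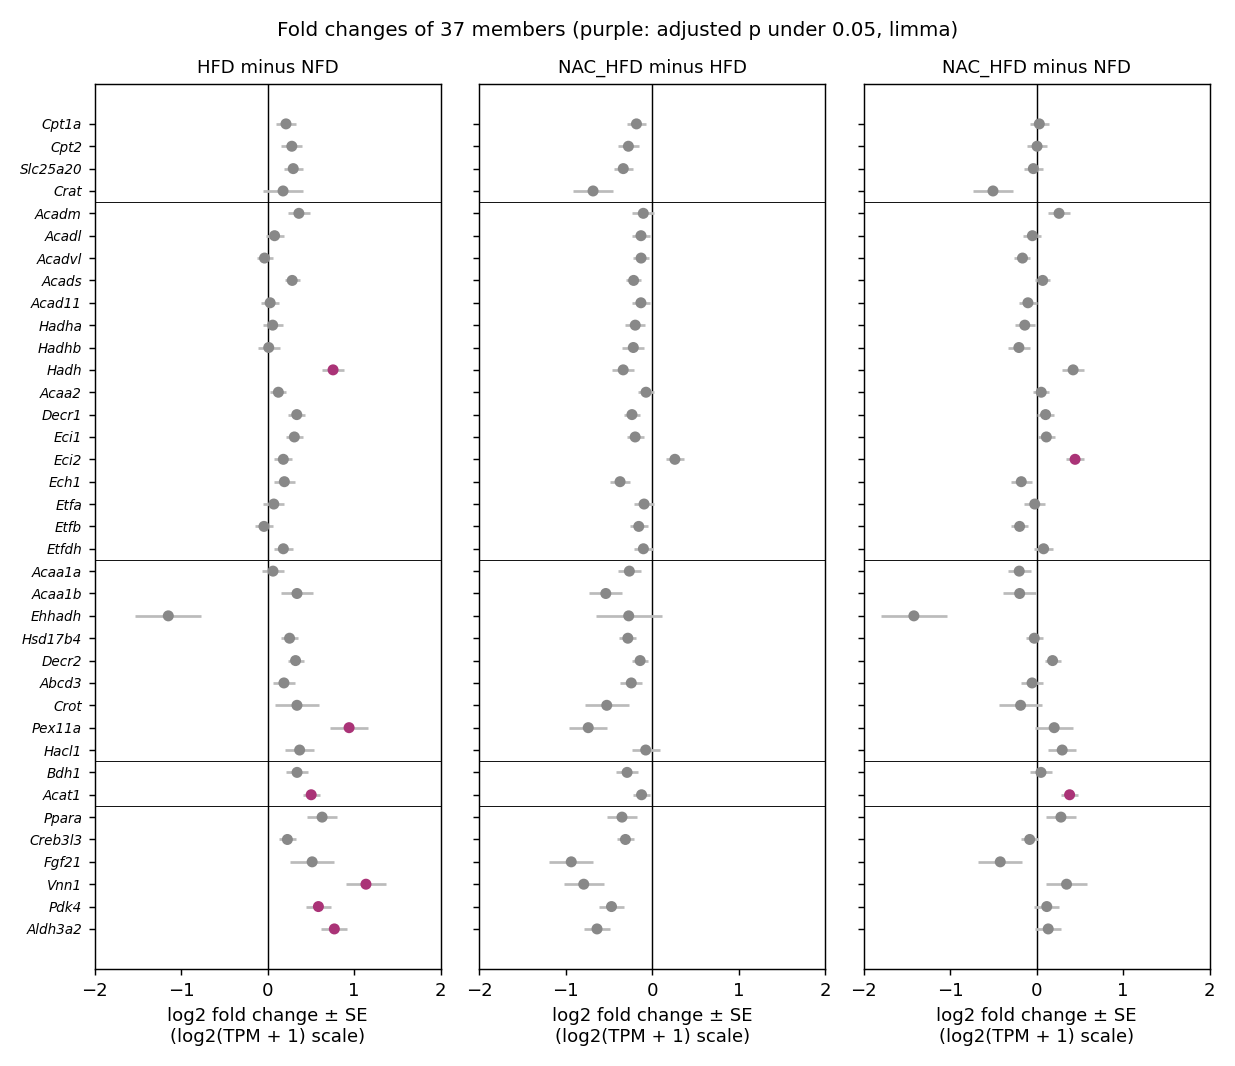
Points are limma fold changes in log2(TPM + 1), with standard errors as bars, in rows by member and role, for the 3 comparisons; purple points passed the adjusted threshold of 0.05. In HFD minus NFD 34 of 37 points lie right of 0 and 6 are purple; in NAC_HFD minus HFD 36 lie left and none is purple; in NAC_HFD minus NFD 2 are purple (Eci2 and Acat1).

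In the carnitine shuttle no member passed the test. Slc25a20, the carnitine-acylcarnitine carrier of the inner membrane, had 88.8, 71.9, 72.9 and 82.3 TPM in NFD and 107, 90.2, 95.2 and 95.15 in HFD, without overlap (log2 fold change 0.30, SE 0.11, adjusted p = 0.164). Cpt1a, the outer-membrane transferase that sets the rate of entry, averaged 180.2 ± 26.5 TPM in NFD and 207 ± 8.96 in HFD (SD, n = 4), and its groups overlapped (0.21, SE 0.11, adjusted p = 0.331). Cpt2, the inner-membrane transferase, and Crat, which makes acetylcarnitine, had log2 fold changes of 0.28 and 0.18 with adjusted p of 0.225 and 0.724.

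Among the 16 genes of mitochondrial oxidation, Hadh rose. Hadh (ENSMUSG00000027984, chr3:131233419-131272101, build GRCm38) encodes the dehydrogenase that oxidises short- and medium-chain 3-hydroxyacyl-CoA, and its promoter is the one shown above with a CCAAT box and a GC box. It had 143, 126, 112 and 118 TPM in NFD, 236, 214, 187 and 209 in HFD, and 164, 134, 173 and 204 in NAC_HFD. Each HFD library was above each NFD library, and NAC_HFD lay between and overlapped both. The difference between HFD and NFD was 0.76 (SE 0.13, adjusted p = 0.00895), and it passed the threshold with each library left out in turn, the highest adjusted p being 0.0375 without HFD replicate 1.

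The other 15 mitochondrial members did not pass. Acads, the short-chain acyl-CoA dehydrogenase, had tightly grouped values of 67.5, 65.5, 67.3 and 69.7 TPM in NFD and 86.6, 78.3, 81.2 and 83.6 in HFD, without overlap (0.28, SE 0.09, adjusted p = 0.0941). Decr1 and Eci1, auxiliary enzymes for unsaturated fatty acids, likewise did not overlap, with log2 fold changes of 0.34 (adjusted p = 0.0814) and 0.31 (adjusted p = 0.109). Acadl, Hadha and Hadhb, of the long-chain steps, and Acad11, filed here with the mitochondrial genes, lay closer to 0, between 0.01 and 0.08. Acadvl, the very-long-chain dehydrogenase, and Etfb, a subunit of the electron transfer flavoprotein, were both at -0.04. Acaa2, Etfa and Etfdh had log2 fold changes of 0.12, 0.07 and 0.18, with overlapping groups (adjusted p = 0.496, 0.788 and 0.402). The trifunctional protein subunits Hadha and Hadhb had 169 ± 17.5 and 173 ± 29.7 TPM in NFD and 175 ± 7.16 and 173 ± 8.15 in HFD (SD, n = 4), with overlapping groups.

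Of the 9 peroxisomal members, Pex11a rose. Pex11a (ENSMUSG00000030545, chr7:79735957-79743131) encodes a membrane protein of peroxisome elongation and division. It had 48.9, 36.4, 23.98 and 59.2 TPM in NFD, 82.05, 79.0, 81.45 and 68.6 in HFD, and 58.5, 37.9, 43.9 and 46.25 in NAC_HFD. The HFD libraries were above all 8 others, and the NFD libraries spread widely. HFD exceeded NFD by 0.94 (SE 0.22, adjusted p = 0.0417). This call was lost in 8 of 12 fits that left out 1 library, with an adjusted p of 0.0595 and 0.0869 without NFD replicates 1 and 2. It was 0.123, 0.0974, 0.0746 and 0.0878 without HFD replicates 1 to 4, and 0.0548 and 0.0573 without NAC_HFD replicates 3 and 4. Of 12 other settings 5 also ended it, with an adjusted p of up to 0.0847.

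Decr2, the peroxisomal dienoyl-CoA reductase, and Hsd17b4, the bifunctional enzyme for branched and very-long-chain substrates, were higher in each HFD library than in each NFD library without passing the test (0.32, adjusted p = 0.0799, and 0.25, adjusted p = 0.175). Hacl1, a lyase of alpha-oxidation, differed by 0.37 with overlap (adjusted p = 0.239). The thiolases Acaa1a and Acaa1b are near-identical copies, and the division of reads between them is unstated, so their values are uncertain. Acaa1b averaged 536 ± 168 TPM in NFD and 657 ± 71.5 in HFD, and Acaa1a 96.4 ± 15.03 and 100.3 ± 13.4 (SD, n = 4). Crot, which forms medium-chain carnitine esters, and Abcd3, a peroxisomal fatty acid transporter, had log2 fold changes of 0.34 and 0.19 with adjusted p of 0.495 and 0.442.

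Ehhadh had the opposite sign. It encodes the L-bifunctional enzyme of peroxisomal oxidation (ENSMUSG00000022853, chr16:21761285-21787834), a classical PPARalpha target. It had 370.0, 151, 640.2 and 629 TPM in NFD, 181, 162, 224 and 139.7 in HFD, and 166, 121, 143 and 149.7 in NAC_HFD. NFD replicates 1, 3 and 4 were above all 8 high fat libraries, whereas NFD replicate 2 was among them. The log2 fold change was -1.15 (SE 0.38, adjusted p = 0.134). Without NFD replicate 2 it was -1.60 with an adjusted p of 0.00212. Ehhadh did not pass in 11 of 12 fits that left out 1 library (adjusted p up to 0.284), nor in 11 of 12 other settings (up to 0.218). In the authors' deposited table its transcript is listed with a log2 fold change of -1.32 and an adjusted p of 0.0116.

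The NFD libraries of Ehhadh ran in the order of replicate 3, 4, 1 and 2 from high to low. That order was shared by 638 of 11376 tested genes (5.61%), by 7 of the other 36 members and by 4 of 23 tested PPARalpha targets outside the 37. Of those 4 (Cidec, Cyp4a10, Cyp4a14 and Cyp4a32), the fatty acid omega-hydroxylases Cyp4a10 and Cyp4a14 are given here, chosen after their values were seen. The Cyp4a genes are close paralogs and the division of reads between them is unstated, so they may not be separate matches. Cyp4a10 had 1465, 946, 2458 and 2024 TPM in NFD replicates 1 to 4, and Cyp4a14 had 1688, 876, 2967 and 2336. In HFD, Cyp4a10 had 921 to 1456 TPM and Cyp4a14 765 to 1347. Neither passed the test (log2 fold changes -0.44 and -0.85, adjusted p = 0.437 and 0.374). Within NFD, Pex11a and Ppara ran otherwise, with their lowest values in replicate 3.

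**Figure D3:**
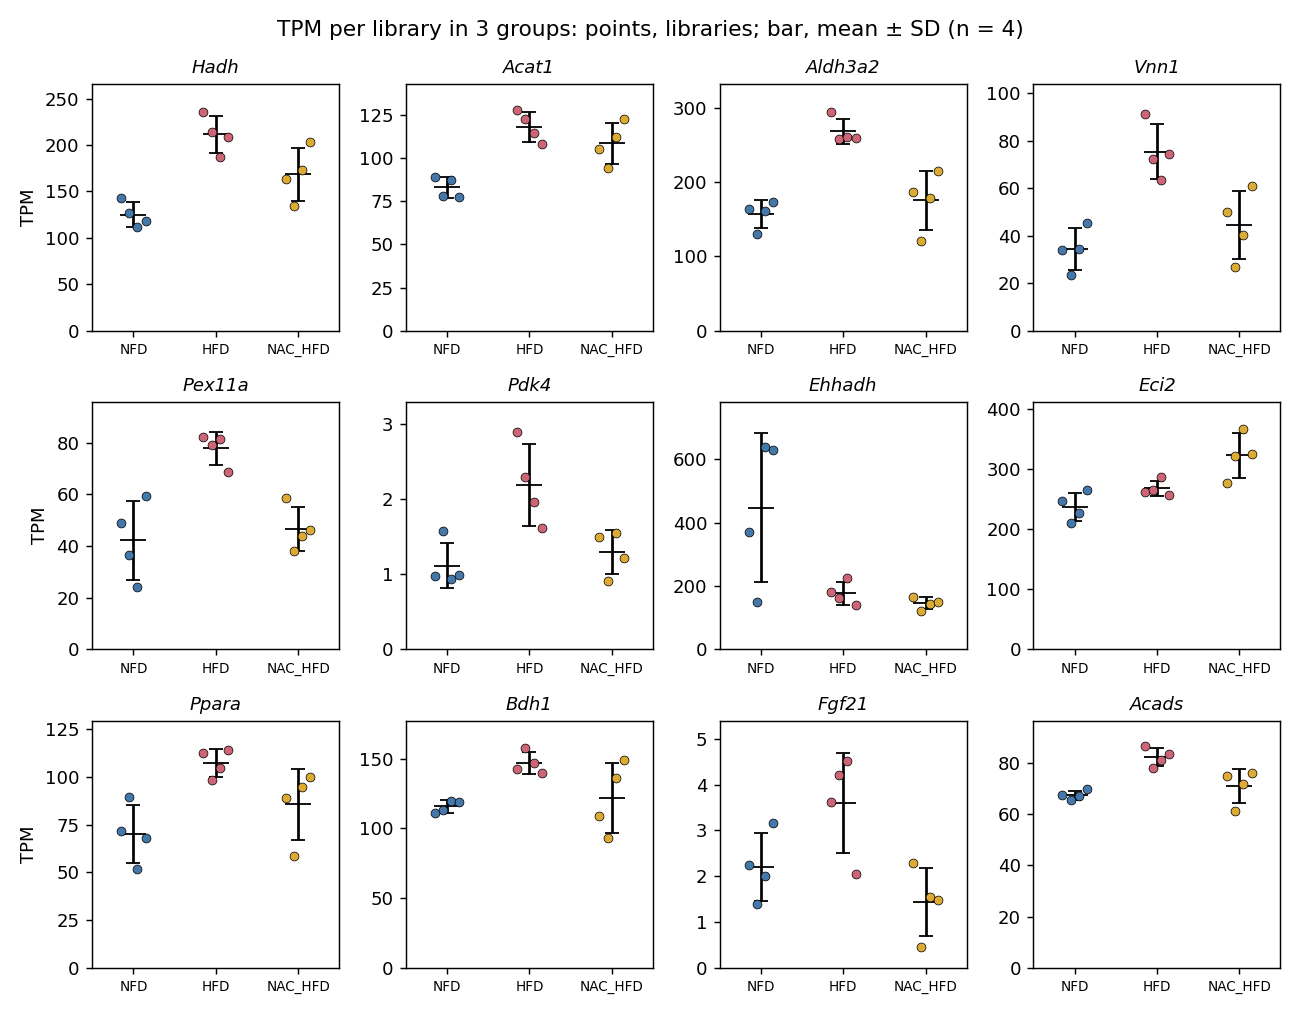
TPM of 12 members in each library (points, replicates 1 to 4 from left to right in each group), with the group mean and SD (n = 4) as bars and axes from 0. HFD points of Hadh, Acat1, Aldh3a2, Vnn1, Pex11a and Pdk4 all lie above the NFD points; 3 of 4 NFD points of Ehhadh lie above every high fat library, and each NAC_HFD point of Eci2 lies above each NFD point.

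Of the ketone body genes, Acat1 rose. Acat1 (ENSMUSG00000032047, chr9:53580522-53610350) encodes the mitochondrial acetoacetyl-CoA thiolase, which also serves isoleucine breakdown. It had 89.3, 77.95, 87.3 and 77.6 TPM in NFD, 128, 123, 114 and 108 in HFD, and 105, 94.2, 112 and 122.55 in NAC_HFD. Both high fat groups lay above NFD without overlap and overlapped each other. The difference between HFD and NFD was 0.50 (SE 0.10, adjusted p = 0.0189). Leaving out HFD replicate 1 or 2 ended the call (adjusted p = 0.0763 and 0.0599).

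Bdh1, which interconverts acetoacetate and 3-hydroxybutyrate, averaged 116 ± 4.49 TPM in NFD, 147 ± 7.93 in HFD and 122 ± 25.3 in NAC_HFD (SD, n = 4). Its HFD and NFD libraries did not overlap (0.34, SE 0.13, adjusted p = 0.165).

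The regulators and other targets held 3 of the 6 calls. Aldh3a2 (ENSMUSG00000010025, chr11:61223417-61267528), a fatty aldehyde dehydrogenase, had 164, 130.03, 162 and 174 TPM in NFD, 293, 258, 261 and 259 in HFD, and 186, 121, 179 and 215 in NAC_HFD. HFD was above all 8 other libraries. The difference between HFD and NFD was 0.77 (SE 0.15, adjusted p = 0.0181), and it was lost without HFD replicate 1 (adjusted p = 0.0705) or 4 (adjusted p = 0.0515).

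Vnn1 (ENSMUSG00000037440, chr10:23894688-23905344), a pantetheinase, had 34.0, 23.5, 34.4 and 45.1 TPM in NFD, 91.1, 72.2, 63.4 and 74.2 in HFD, and 49.8, 27.0, 40.4 and 60.7 in NAC_HFD. Again HFD was above all 8 others, and HFD exceeded NFD by 1.14 (SE 0.23, adjusted p = 0.0248). The call was lost without NFD replicate 1 or 3 (adjusted p = 0.0614 and 0.0501) and without HFD replicate 1, 2 or 4 (adjusted p = 0.0876, 0.0621 and 0.0726), and with no floor on low values (adjusted p = 0.0523).

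Pdk4 (ENSMUSG00000019577, chr6:5483351-5496278), the kinase that shuts off pyruvate dehydrogenase, was near the floor. It had 0.97, 1.57, 0.93 and 0.99 TPM in NFD, 2.89, 2.29, 1.96 and 1.61 in HFD, and 1.49, 0.91, 1.55 and 1.21 in NAC_HFD. The lowest HFD library stood 0.04 TPM over the highest NFD library. The log2 fold change of 0.59 (SE 0.15, adjusted p = 0.0465) understates the change of so low a gene. It was lost in 10 of 12 fits that left out 1 library, with adjusted p of 0.116, 0.0927 and 0.0953 without NFD replicates 1, 3 and 4, and of 0.150, 0.113, 0.05998 and 0.0535 without HFD replicates 1 to 4. Without NAC_HFD replicates 1, 3 and 4 the adjusted p was 0.0542, 0.0516 and 0.05998, and 6 of 11 other settings gave up to 0.0854. In a fit on coding transcripts alone, an alternative added after seeing the data, the fold change of Pdk4 was 0.65 (SE 0.12, adjusted p = 0.0153).

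Ppara itself, the receptor gene (ENSMUSG00000022383, chr15:85734910-85806851), had 71.8, 89.3, 51.9 and 67.8 TPM in NFD, 112, 98.4, 105 and 114 in HFD, and 88.75, 58.6, 94.99 and 100.2 in NAC_HFD. HFD lay above NFD without overlap and overlapped NAC_HFD. The difference of 0.63 (SE 0.17) did not pass (adjusted p = 0.0675), though it did without NFD replicate 2 (adjusted p = 0.0389) or NAC_HFD replicate 2 (adjusted p = 0.0265). Creb3l3, a membrane-bound transcription factor of the fasted liver, differed by 0.23 (adjusted p = 0.241). Fgf21, a liver hormone, had 2.24, 1.39, 2.01 and 3.17 TPM in NFD and 3.61, 4.21, 4.52 and 2.05 in HFD (0.51, SE 0.25, adjusted p = 0.291).

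The second comparison asked what N-acetylcysteine changed in livers on the high fat diet. No member passed the test, and neither did any of the 11376 genes (0.0% called by limma). At an unadjusted p under 0.05, 16 members were lower and 1 higher, against 13.9% and 2.51% of tested genes. Fold changes were negative for 36 members and positive for 1, against 68.5% and 31.5% of tested genes, with a median of -0.24 against -0.08 for all genes. After median-of-ratios scaling 4 members were positive and the member median was -0.14. In 11 members every NAC_HFD library lay below every HFD library, against 8.66% of tested genes, and in 0 members above, against 1.56%. NAC_HFD replicate 2, lowest in its group in 35 members, and HFD replicate 1 stood apart as described above.

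Aldh3a2 had the smallest adjusted p of the members, with a log2 fold change of -0.64 (SE 0.15, adjusted p = 0.0830). Its highest NAC_HFD library had 215 TPM and its lowest HFD library 258. Fgf21 had the most negative fold change, -0.94 (SE 0.25, adjusted p = 0.110), with 2.28, 0.46, 1.54 and 1.48 TPM in NAC_HFD. Its groups overlapped, because HFD replicate 4 had 2.05 TPM. Vnn1, Pex11a and Pdk4, which did not overlap, had fold changes of -0.79, -0.74 and -0.47 with adjusted p of 0.138, 0.142 and 0.148. The other members without overlap were Slc25a20 (-0.33), Acads (-0.22), Hadhb (-0.22), Ech1 (-0.37), Acaa1b (-0.54), Hsd17b4 (-0.28) and Creb3l3 (-0.31). Hadh, the member with the smallest adjusted p in HFD against NFD, overlapped here and differed by -0.34 (SE 0.13, adjusted p = 0.218). Crat differed by -0.68 with overlap (SE 0.23, adjusted p = 0.183).

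In the third comparison, NAC_HFD against NFD, 2 members rose and 0 fell, where 5.28% of tested genes were called, 1.76% as higher and 3.52% as lower. Fold changes were positive for 19 members and negative for 18, against 37.5% and 62.5%, with a median of 0.00 against -0.07. The 3 comparisons share libraries pairwise, so their values are set side by side and are not independent. Group means ran in the order NFD, NAC_HFD, HFD from low to high in 18 members and NAC_HFD, NFD, HFD in 14. In 4 members, Acadvl, Hadhb, Etfb and Ehhadh, NFD had the highest mean, and in 1, Eci2, NAC_HFD did.

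Eci2 (ENSMUSG00000021417, chr13:34977748-35027115) encodes an enoyl-CoA isomerase found in both mitochondria and peroxisomes. It had 246, 209, 227 and 265 TPM in NFD, 262, 266, 286 and 256 in HFD, and 276, 322, 366 and 325 in NAC_HFD. NAC_HFD lay above NFD without overlap, and 3 of its 4 libraries were above every HFD library. The difference from NFD was 0.44 (SE 0.11, adjusted p = 0.0297), and that from HFD, 0.26 (SE 0.11), did not pass (adjusted p = 0.241). The call was lost without NFD replicate 1, 2 or 3 (adjusted p = 0.0584, 0.0676 and 0.0655) and without NAC_HFD replicate 2, 3 or 4 (adjusted p = 0.0503, 0.0830 and 0.0743), and in 4 of 12 other settings (adjusted p up to 0.0962). Reads shared with its paralog Eci3 could not be checked.

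Acat1 exceeded its NFD level by 0.38 in NAC_HFD (SE 0.10, adjusted p = 0.0434), and its groups did not overlap. In NAC_HFD against NFD 2 members were higher without overlap, against 3.52% of tested genes, and 0 lower, against 8.52%. The call was lost in 11 of 12 fits that left out 1 library; the exception was NAC_HFD replicate 2. Without NFD replicates 1 to 4 the adjusted p was 0.0661, 0.0906, 0.06496 and 0.0697, and without HFD replicates 1 to 4 it was 0.0599, 0.0585, 0.0617 and 0.0509. Without NAC_HFD replicates 1, 3 and 4 it was 0.0619, 0.104 and 0.123, and 6 of 12 other settings gave up to 0.108. Hadh differed from NFD by 0.42 (SE 0.13, adjusted p = 0.0708), and passed without NAC_HFD replicate 2 (adjusted p = 0.0307). Ehhadh differed by -1.42 (SE 0.38, adjusted p = 0.0553), and by -1.87 without NFD replicate 2 (adjusted p = 0.00128). It did not pass in 11 of 12 fits that left out 1 library (adjusted p up to 0.122), nor in 10 of 12 other settings (up to 0.130).

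A gene's TPM is the sum of its coding and noncoding transcripts, and for Acadm the classes went apart. Acadm (ENSMUSG00000062908, chr3:153922353-153944643) encodes the medium-chain acyl-CoA dehydrogenase. The whole gene had 316, 255, 324 and 398 TPM in NFD, 434, 398, 425 and 388 in HFD, and 351, 339, 411 and 436 in NAC_HFD. Its 2 coding transcripts together had 202, 148, 210 and 192 TPM in NFD, 277, 243, 243 and 237 in HFD, and 196, 141, 191 and 202 in NAC_HFD. For the coding sum, each HFD library lay above all 8 others, which was not so for the whole gene. In a fit on coding transcripts alone the fold change of Acadm was 0.42 in HFD against NFD (SE 0.14, adjusted p = 0.118) and -0.46 in NAC_HFD against HFD (SE 0.14, adjusted p = 0.148). For the whole gene they were 0.36 (adjusted p = 0.148) and -0.10 (adjusted p = 0.728).

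Its 7 noncoding transcripts made up 41.3 ± 7.62% of Acadm TPM in NFD, 39.2 ± 2.72% in HFD and 52.4 ± 5.98% in NAC_HFD (SD, n = 4). NAC_HFD, at 44.2% to 58.4%, did not overlap HFD, at 36.2% to 42.8%. NFD, at 35.3% to 51.9%, overlapped both. One of the 7 noncoding transcripts, ENSMUST00000200250, had 16.7, 22.75, 25.6 and 20.3 TPM in NFD, 4.34, 7.21, 13.6 and 20.3 in HFD, and 27.8, 26.7, 29.1 and 58.1 in NAC_HFD. In the authors' deposited table for NAC_HFD against HFD it has a log2 fold change of 1.72 and an adjusted p of 0.0190. Another 2, ENSMUST00000199342 and ENSMUST00000196688, are listed in the authors' deposited table as higher in HFD than NFD, with log2 fold changes of 1.31 and 1.118 and adjusted p of 3.2e-05 and 0.000448. Both were under 9 TPM in each library. The division of reads between overlapping transcripts is unstated, so these shares are estimates. Among the other members, the noncoding shares of Acaa1b and Acadvl were lower in each NAC_HFD library than in each HFD library. Such shares were not computed over all genes.

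**Figure D4:**
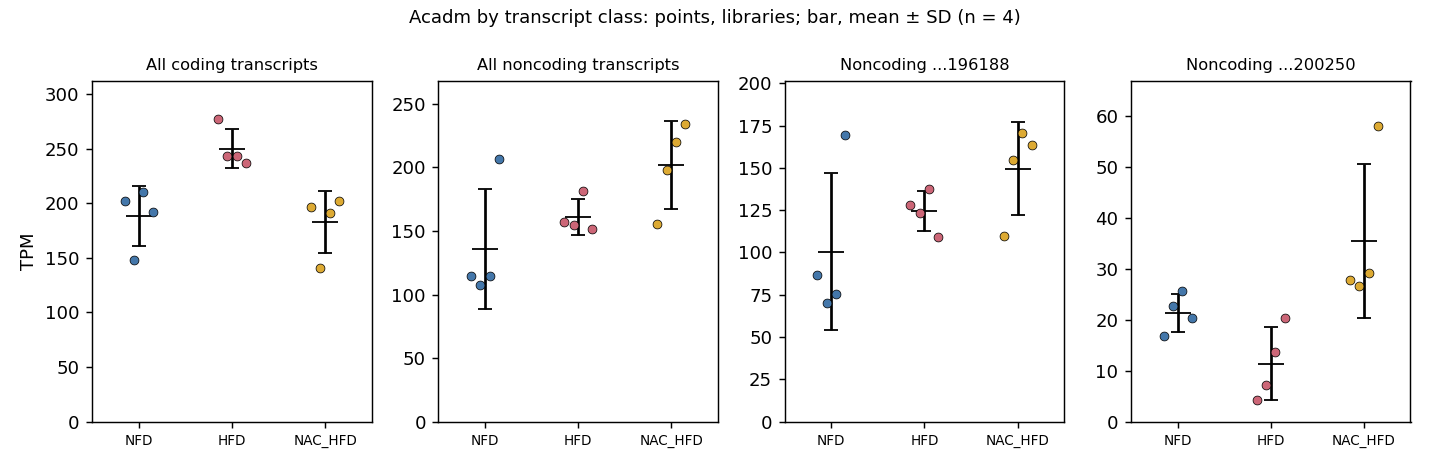
TPM of Acadm in each library (points) with group mean and SD (n = 4) as bars, for all coding transcripts, all noncoding transcripts, and 2 noncoding transcripts named by the last digits of their identifiers. Coding TPM is highest in the 4 HFD libraries (237 to 277), and ENSMUST00000200250 is higher in each NAC_HFD library (26.7 to 58.1) than in each HFD library (4.34 to 20.3).

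Over the members, 70 coding and 56 noncoding transcripts reached 1 TPM in at least 4 libraries. In HFD against NFD, 19 of the coding transcripts were higher without overlap, against 6.37% of all coding transcripts, and 1 was lower, against 3.15%. In NAC_HFD against HFD, 17 were lower, against 5.79%, and 1 was higher, against 1.87%. Of the noncoding transcripts, 7 were higher and 0 lower in HFD than NFD, against 2.49% and 3.67% of all noncoding transcripts. In NAC_HFD against HFD, 2 were higher and 8 lower, against 2.36% and 5.37%.

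The lower coding transcript was ENSMUST00000197383 of Abcd3, with 18.15, 15.4, 12.7 and 29.9 TPM in NFD and 8.39, 7.48, 7.63 and 10.1 in HFD. The authors' deposited table gives it a log2 fold change of -1.14 and an adjusted p of 0.0315, while the whole Abcd3 gene had a fold change of 0.19. The coding transcript that was higher in NAC_HFD than HFD was ENSMUST00000110251 of Eci2. It had 37.7, 36.9, 31.4 and 22.3 TPM in NFD, 44.4, 41.9, 38.1 and 46.6 in HFD, and 57.4, 53.8, 68.6 and 48.5 in NAC_HFD, with no overlap between any of the 3 groups.

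ENSMUST00000108715 of Aldh3a2 had 7.41 to 9.70 TPM in NFD, 16.9, 17.1, 18.1 and 10.4 in HFD, and 7.42, 2.97, 8.57 and 6.79 in NAC_HFD. The authors' deposited table gives it a log2 fold change of -1.17 and an adjusted p of 0.00687 in NAC_HFD against HFD. Vnn1 is listed there for HFD against NFD, at 1.16 with an adjusted p of 0.000732. The noncoding ENSMUST00000134516 of Acadvl had 3.09 to 5.58 TPM in HFD and 0.37 to 1.66 in NAC_HFD, and is listed in the authors' deposited table at -1.75 with an adjusted p of 0.00238.

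A further 93 genes of the same pathways, listed by function (other ketone body, mitochondrial and peroxisomal genes, partners of PPARalpha, and other PPARalpha targets), were read beside the members, and 91 were tested. In HFD against NFD 3 of the 91 rose and 0 fell, against 2.78% called among all tested genes, and 64 fold changes were positive. Pex11g, a relative of Pex11a, had 9.5, 10.6, 10.5 and 9.78 TPM in NFD, 16.7, 12.1, 15.85 and 14.99 in HFD, and 12.8, 13.2, 13.1 and 14.8 in NAC_HFD. It rose in both high fat groups against NFD (0.51, adjusted p = 0.0181, and 0.38, adjusted p = 0.0425). The other two were Cd36, a fatty acid transporter (1.91, SE 0.33, adjusted p = 0.0161), and Mogat1, a monoacylglycerol acyltransferase (1.55, SE 0.21, adjusted p = 0.00280).

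In NAC_HFD against HFD 0 of the 91 passed, and at an unadjusted p under 0.05 there were 18 lower and 2 higher, against 13.9% and 2.51% of all tested genes. In NAC_HFD against NFD 4 of the 91 were called, against 5.28% of all tested genes: Cat and Pex11g rose, and Cyp4a31 and Slc16a1 fell. Cat, the peroxisomal catalase, averaged 1359 ± 149 TPM in NFD, 1703 ± 57.0 in HFD and 1821 ± 160 in NAC_HFD (SD, n = 4; NAC_HFD against NFD 0.42, adjusted p = 0.0335). Cyp4a31, a fatty acid omega-hydroxylase with close paralogs, averaged 47.4 ± 15, 23.8 ± 7.91 and 14.5 ± 2.51 TPM (-1.60, adjusted p = 0.00920). Slc16a1, a carrier of lactate and ketone bodies, averaged 10.6 ± 1.2, 8.06 ± 0.376 and 7.75 ± 0.990 TPM (-0.41, adjusted p = 0.0377).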

How the data were processed

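Groups and replicate numbers came from the sample labels. Per the submitters' processing notes, fastp, HISAT and RSEM were used with build GRCm38, versions and roles not given in the sources used here. Deposited by the authors were TPM per gene and per mRNA and lncRNA transcript. TPM keeps no read depth, so no counting interval or floor is given. The deposited comparison tables hold ratios (fold changes), log2 fold changes and p-values per the file headers; the sources used here name no test behind them, and they are printed only as the authors' deposited table.

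The 11376 of 19252 genes with 1 TPM or more in 4 or more of the 12 libraries were fitted on log2(TPM + 1) by limma 3.58.1 under R 4.3.3, using lmFit and an eBayes step with trend and robust set. One fit with 3 group means and 9 residual degrees of freedom covered all 12 libraries. Tests were two-sided, with Benjamini-Hochberg adjustment over all tested genes and a threshold of 0.05; the script was tested on simulated data. Groups do not overlap where each library of one lies above each of the other. The rule for named genes took every member, and of the other pathway genes those past the threshold, up to 6 per comparison; Cyp4a10, Cyp4a14, Cyp4a32 and Cidec fall outside it and were named after their values were seen. The members and lists were chosen with earlier results of these data known. Coordinates are those of GRCm38. Alternatives covered the pseudocount, floor, scaling, fit, replicate block, coding transcripts and each library left out.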

Additional observations from a re-analysis of the deposited data

Results flagged for a closer look

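Each member was screened in each group for 1 library far from the other 3 by Dixon's ratio of the gap to the group's range. Of 111 groups 5 passed its 95% critical value, and chance flags about 1 in 20 groups. In NAC_HFD replicate 2, Acadvl had 143.98 TPM against 165 to 169 in the other NAC_HFD libraries, and Ech1 had 221.35 TPM against 294.5 to 303. In HFD replicate 1, Crot had 293.62 TPM against 234 to 241 in the other HFD libraries, and Aldh3a2 had 293.35 TPM against 258 to 261. In NFD replicate 2, Pdk4 had 1.57 TPM against 0.93 to 0.99 in the other NFD libraries. Noncoding transcripts made up 0% to 33.1% of Pdk4 TPM over the NFD libraries, and their part in this value was not tested.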

How the results depend on the processing

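With each library left out in turn, the members called were 1 to 7 in HFD against NFD, 0 to 0 in NAC_HFD against HFD and 0 to 2 in NAC_HFD against NFD. Over all genes the counts were 90 (without HFD replicate 1) to 375, 0 to 64 (without NAC_HFD replicate 1) and 211 (without NAC_HFD replicate 4) to 618, where all libraries gave 316, 0 and 601. With no floor on low values, 3 members and 168 genes were called in HFD against NFD, and 0 members and 289 genes in NAC_HFD against NFD. In NAC_HFD against NFD, rescaling TPM within the table gave 1 member and 664 of 11996 genes. Coding transcripts only gave 1 member and 411 of 10893 genes, and a fit on NAC_HFD and NFD alone gave 0 members and 188 genes. The replicate numbers did not pair the libraries: 2 of 12 same-numbered pairs had correlated deviations over 0.1 (range -0.17 to 0.18). With the replicate block, 0 members were called in NAC_HFD against NFD and 3 genes in NAC_HFD against HFD; the block left 5 members in HFD against NFD. Over all genes it gave 225 calls in HFD and 406 in NAC_HFD against NFD. Genes called higher and lower split 249 to 67 in HFD against NFD, 274 to 121 after median-of-ratios scaling, 259 to 160 after quantile normalization and 194 to 93 after rescaling. In NAC_HFD against NFD they split 200 to 401, 363 to 269 after median-of-ratios scaling and 314 to 294 after quantile normalization. Leaving out NFD replicate 2 and NAC_HFD replicate 2 together, an alternative added after seeing the data as was the one on coding transcripts, gave 7 members and 272 genes in HFD against NFD, and 3 members and 455 genes in NAC_HFD against NFD. Of the 7 members 5 were among the 6 called with all libraries, and of the 3, which included 1 lower, 0 were among the 2. Of 2658 values of single members under an alternative, 2578 kept their side of the threshold, 66 lost a call and 14 gained one. Most of the 2578 had no call to lose. The 66 losses all came from the 6 calls in HFD against NFD and the 2 in NAC_HFD against NFD. Where no cause is named, the cause was not tested.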
